A study of Mus musculus with 6 samples.

Results

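The genes described here are 32 genes of cholesterol and fatty acid synthesis, taken by symbol from a list of enzymes and their sterol-sensing regulators. All 32 were among the 26754 genes of the files, and GENCODE M21 lists each of them as protein-coding. They were measured in cells taken with CD8a magnetic beads from B16 melanomas growing under the skin of female C57BL/6J mice, 6 to 8 weeks old when bought. The genotype is labelled only C57 on both days, and no allele or agent is named. Tumours were collected 7 or 14 days after implantation, with 3 libraries for each day, and the labels do not say that libraries of 1 day came from separate mice. The series concerns the integrin LFA-1 and IL-2 signals in tumour CD8+ T cells, and its design implies 1 comparison, later against early tumours. Values are RPKM, reads per kilobase of gene length per 1000000 reads in genes.

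Cholesterol is built from acetyl-CoA through mevalonate, the isoprenoid farnesyl diphosphate, squalene and lanosterol, each step with its own enzyme. Fatty acids are built from the same acetyl-CoA by acetyl-CoA carboxylase and fatty acid synthase, then lengthened by elongases and given double bonds by desaturases. The transcription factors SREBP1 and SREBP2 switch on most of these genes. When sterols in the endoplasmic reticulum run low, the escort protein SCAP carries both factors to the Golgi for cleavage, and INSIG1 holds SCAP back when sterols are plentiful. T cells raise this programme when they are activated and divide, and tumour cells commonly run it as well.

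Both enzymes whose transcripts passed the test were desaturases. Fads2, the delta-6 desaturase that opens the route to long polyunsaturated fatty acids, rose 5.88-fold between the means of day 7 and day 14, and Scd2, a stearoyl-CoA desaturase that makes monounsaturated fatty acids, rose 2.21-fold. The remaining members gave no call: 24 were tested and 6 were below the filter on low values. Fads2 passed that filter only through its day 14 level. A log2 fold change here is the difference between the days in mean log2(RPKM + 1), which understates changes of low genes and differs from a ratio of means. Of the tested members it was above 0 in 25, and below 0 in Srebf1, the gene of SREBP1.

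SREBP proteins bind a short sterol regulatory element, usually beside a CCAAT box bound by NF-Y, so promoter windows were read from RefSeq (GRCm38.p6), 250 bases before to 50 after each start site. Windows were found for 26 of the 32 genes, 33 windows in all because some genes have several start sites. The genes without one were Fdps, Fdft1, Sqle, Scd1, Scd2 and Fads1. The letters TCACNCCAC (N is any base, both strands), a form of the sterol regulatory element, were present in 1 of the 33 windows (3.03%), that of Hmgcs1, against 1.24% of all 32851 windows in the table. CCAAT on either strand was present in 22 of the 33 (66.7%) against 37.4% of all windows. CACGTG, the E-box that SREBP1 can also bind, was present in 7 (21.2%) against 7.15%. These 7 windows belong to 6 of the 26 genes, since the windows of Scap overlap and hold the same match. A match describes these letters only, and a missing match says only that these letters were absent from the window. Other forms of the elements, and sites outside the windows, were not searched. The 5 windows below belong to Hmgcs1 (chr13:119690101-119690400, plus strand), an early enzyme, whose window has the sterol element and 4 CCAAT matches; Msmo1 (chr8:64733529-64733828, minus strand) and Fasn (chr11:120824498-120824797, minus strand), which have 3 CCAAT matches each; Sc5d (chr9:42264251-42264550, minus strand), which has a CCAAT match and an E-box; and Fads2 (chr19:10101454-10101753, minus strand), which had the largest log2 fold change of the tested members and no match to the 3 motifs. Capitals mark the matches. In Fasn a CCAAT and its reverse complement overlap and form 1 longer run.
Hmgcs1: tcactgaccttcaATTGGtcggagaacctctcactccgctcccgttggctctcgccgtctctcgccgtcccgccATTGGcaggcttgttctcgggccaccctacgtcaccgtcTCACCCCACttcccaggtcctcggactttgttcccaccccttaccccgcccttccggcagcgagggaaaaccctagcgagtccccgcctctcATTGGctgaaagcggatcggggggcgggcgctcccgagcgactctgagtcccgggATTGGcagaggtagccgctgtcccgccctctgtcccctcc
Msmo1: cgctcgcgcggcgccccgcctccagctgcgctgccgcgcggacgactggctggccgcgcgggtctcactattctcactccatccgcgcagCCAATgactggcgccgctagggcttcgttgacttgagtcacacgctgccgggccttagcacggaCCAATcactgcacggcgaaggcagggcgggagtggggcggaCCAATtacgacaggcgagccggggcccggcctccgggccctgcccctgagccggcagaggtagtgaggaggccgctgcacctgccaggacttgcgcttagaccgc
Fasn: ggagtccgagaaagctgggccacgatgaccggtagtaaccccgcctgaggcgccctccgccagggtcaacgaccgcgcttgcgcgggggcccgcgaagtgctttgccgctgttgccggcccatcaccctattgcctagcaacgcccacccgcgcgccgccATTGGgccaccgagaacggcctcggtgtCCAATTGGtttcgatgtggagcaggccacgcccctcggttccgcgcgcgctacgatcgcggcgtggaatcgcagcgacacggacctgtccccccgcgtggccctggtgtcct
Sc5d: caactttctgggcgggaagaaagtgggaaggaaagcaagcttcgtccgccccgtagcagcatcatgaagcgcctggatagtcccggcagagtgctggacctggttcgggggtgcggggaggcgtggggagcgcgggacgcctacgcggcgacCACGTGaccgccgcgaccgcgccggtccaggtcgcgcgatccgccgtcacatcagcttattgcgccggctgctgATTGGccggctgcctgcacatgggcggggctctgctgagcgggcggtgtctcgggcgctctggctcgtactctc
Fads2: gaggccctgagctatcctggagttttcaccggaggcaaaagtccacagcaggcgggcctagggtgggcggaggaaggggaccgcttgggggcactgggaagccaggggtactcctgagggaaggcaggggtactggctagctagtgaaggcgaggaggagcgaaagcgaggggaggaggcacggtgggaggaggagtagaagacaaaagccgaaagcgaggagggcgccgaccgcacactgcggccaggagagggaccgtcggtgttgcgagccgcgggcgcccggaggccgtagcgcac

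Reads in genes numbered 6523019 to 9313078 per library on day 7 and 11385106 to 13316522 on day 14. Replicates 1 and 2 of day 7 differed in the median gene by about as much as sampling alone gives. With 2 reads counted as 1 fragment, the median chi-square ratio over genes was 1.11, where 1 is sampling noise. It was 40.9 and 44.4 for either with replicate 3 and 4.05 to 4.43 among day 14 libraries. The mean ratio of replicates 1 and 2 was higher, 1.63, against 30.4 and 34.3 for either with replicate 3. The mean level of replicates 1 and 2 entered as 1 sample, so n = 2 on day 7 and n = 3 on day 14. Over 6691 genes that averaged 20 CPM or higher (reads per 1000000), limma on log2(RPKM + 1) called 114 higher and 213 lower on day 14 at an adjusted p under 0.05. After median-of-ratios scaling these were 63 and 291, and the median change over the tested genes went from 0.16 to 0.012 on the log2 scale. The labelled cell type was checked by its markers. Summed over 12 T cell genes, the level was 500 to 520 RPKM on day 7 and 134 to 140 on day 14 (6 of 10 tested lower, none higher). Summed over 9 pigment cell genes of B16, it was 5885 to 6084 RPKM on day 7 and 10750 to 11760 on day 14 (4 of 9 higher, none lower). The pigment cell sum was thus above the T cell sum on both days. Sums of different genes do not measure the share of each cell type. In such bulk samples fewer cells of a type and less RNA per cell cannot be told apart.

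Together the 32 genes summed to 338, 330.0 and 416 RPKM in day 7 replicates 1, 2 and 3 and to 670, 648 and 621 RPKM in day 14 replicates 1, 2 and 3. The lowest day 14 sum was 1.49 times the highest day 7 sum. This sum is a description, with no test. Its day 14 over day 7 ratio was 1.72, beside 1.89 for the pigment cell markers, 1.58 for 12 macrophage markers (851 to 983 RPKM on day 7, 1402 to 1441 on day 14; 5 of 11 tested higher, none lower), 1.48 for 8 proliferation genes (198 to 212 and 294 to 303 RPKM; none of 8 called) and 0.268 for the T cell markers. None of these 4 marker lists had a gene at 0 in all libraries of a day. The part of each cell type in the members' levels was not tested.

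**Figure D1:**
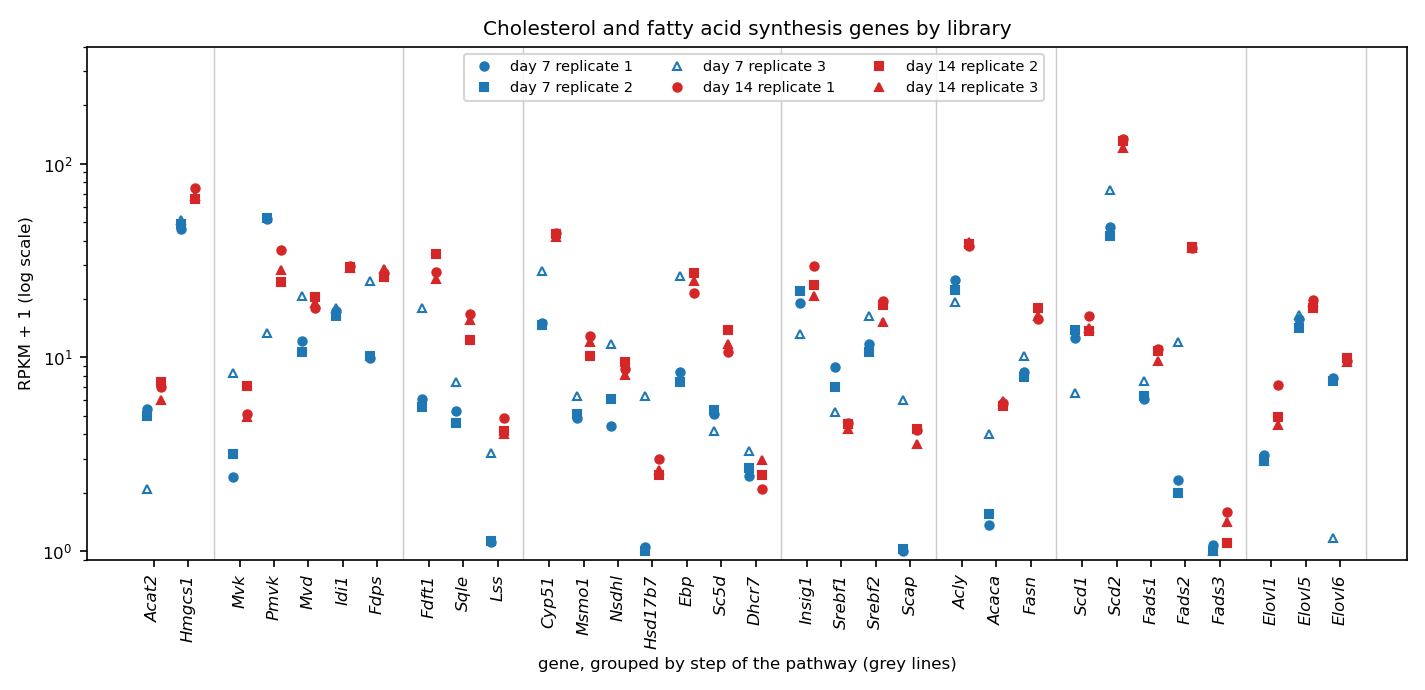
RPKM + 1 on a log scale for each of the 32 genes, grouped by step of the pathway, with 1 point per library (blue, day 7; red, day 14; open triangle, day 7 replicate 3). Scd2 has the highest mean on both days, with Pmvk above it in day 7 replicates 1 and 2. Fads2 has the widest gap between the days among the genes called, from 1.33, 0.997 and 10.98 RPKM to 35.6, 35.9 and 35.6.

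Of the 32 members, 26 passed the filter and were tested, and 6 did not (Acat2, Mvk, Hsd17b7, Dhcr7, Fads3 and Elovl1). The test called 2 of 26 higher (7.69%), where 1.70% of all genes tested were called higher, and 0 of 26 lower, where 3.18% of all genes were (4.89% in either direction). At an unadjusted p under 0.05, limma had 12 of 26 higher and 0 lower, against 11.3% and 8.18% of all genes. The 3 day 14 libraries all lay above the 3 day 7 libraries in 17 of the 26, against 31.6% of all genes, and all lay below in 1, against 17.8%. The log2 fold change was above 0 in 25 of 26, against 61.2% of all genes. The median log2 fold change of the tested members was 0.77, beside 0.16 for all genes. With median-of-ratios scaling 24 of 26 were above 0, Pmvk having turned, with medians of 0.62 and 0.012. A gene that is low on day 7 passes the filter mainly through its day 14 level, as Fads2 did. These counts therefore describe the tested genes and not the whole list. With at least 1 read in 2 samples as the only filter, all 32 were tested and the same 2 were called, while 8.51% of all genes were called higher, so the members' share was then below that of all genes. Without day 7 replicate 3 the test called 1 of 24 higher (Fads2), against 0.46% of all genes, with a median of 0.91 against 0.145. Without day 7 replicates 1 and 2, a setting added after seeing the data, it called 0 of 26, against 0.313% of all genes, with a median of 0.65 against 0.125.

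**Figure D2:**
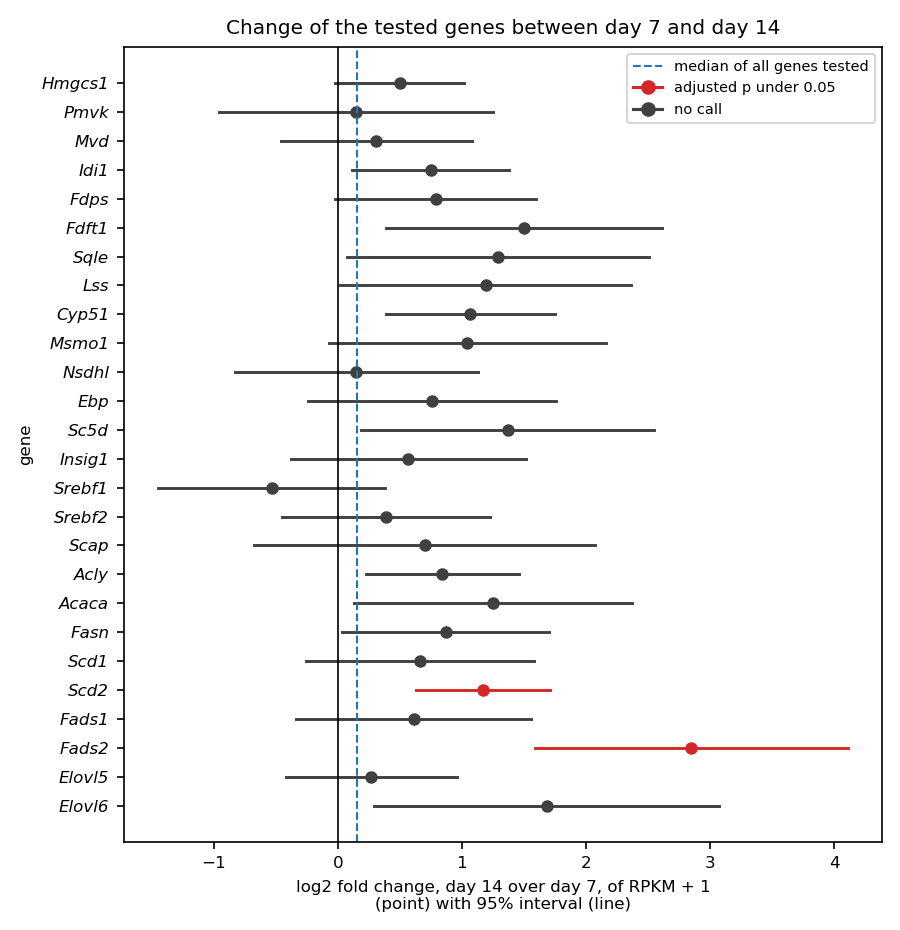
Log2 fold change of RPKM + 1, day 14 over day 7, of the 26 tested genes (points) with 95% intervals (lines), the median of all genes at 0.16 as a dashed line. Fads2 and Scd2, in red, are the genes called, and Srebf1 is the gene left of 0.

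The pathway starts with Acat2, which joins acetyl-CoA units, and Hmgcs1, which makes HMG-CoA. Hmgcs1 (chromosome 13, 119690462 to 119708086, plus strand of GRCm38) stood at 45.1, 47.6 and 50.1 RPKM in day 7 replicates 1, 2 and 3 and at 74.2, 65.0 and 66.8 RPKM in day 14 replicates 1, 2 and 3. The days did not overlap and libraries of 1 day lay close together. Its mean went from 48.2 ± 2.68 RPKM (SD, n = 2) to 68.6 ± 4.88 (SD, n = 3), a log2 fold change of 0.50 that gave no call (SE 0.24, limma adjusted p = 0.276). Acat2, with 90, 94 and 18 reads on day 7 against 174, 206 and 170 on day 14, was not tested. It stood at 4.44, 3.97 and 1.08 RPKM on day 7 and 6.01, 6.45 and 5.02 RPKM on day 14. Its close copy Acat3, a gene outside the list, stood at 22.8, 23.9 and 17.3 RPKM on day 7 and 20.1, 21.2 and 19.7 on day 14.

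The 5 enzymes from mevalonate to farnesyl diphosphate gave no call among 4 tested, with log2 fold changes of 0.14 to 0.79. Idi1, the isomerase of isopentenyl diphosphate, was the tightest of the step, at 16.3, 15.4 and 17.1 RPKM on day 7 and 28.6, 28.4 and 27.9 on day 14. Its libraries did not overlap between the days, and its log2 fold change was 0.75 with a 95% interval of 0.11 to 1.38 (limma adjusted p = 0.184). Fdps, farnesyl diphosphate synthase, stood at 8.95, 9.19 and 23.8 RPKM on day 7 and 26.3, 25.1 and 27.5 on day 14. Day 7 replicate 3 was near the day 14 level and the other day 7 libraries were far below it, and the log2 fold change of 0.79 gave no call (limma adjusted p = 0.268). Without day 7 replicate 3 it was 1.44, and without replicates 1 and 2 it was 0.14. A predicted gene model, Gm43738, overlaps Fdps on the same strand, so its value is uncertain.

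Pmvk, phosphomevalonate kinase, went the other way within day 7, with 50.7 and 51.3 RPKM in replicates 1 and 2 and 12.4 in replicate 3, against 34.8, 23.5 and 27.1 on day 14. All 3 day 14 libraries lay between the day 7 extremes. Its mean RPKM was lower on day 14, at 28.5 against 31.7 on day 7, although its log2 fold change was 0.14. That log2 fold change turned to -0.009 after median-of-ratios scaling and to -0.84 without day 7 replicate 3. Mvd, which makes isopentenyl diphosphate, was at 9.70 to 19.8 RPKM on day 7 and 16.9 to 19.4 on day 14. Mvk, mevalonate kinase, was not tested, at 1.41, 2.17 and 7.34 RPKM on day 7 and 3.93 to 6.13 on day 14. For both genes the days overlapped. For Mvd the log2 fold change of 0.31 was 0.74 without day 7 replicate 3 and -0.13 without replicates 1 and 2.

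Squalene and lanosterol synthesis was the cholesterol step with the highest median log2 fold change, 1.29 over 3 tested genes, and it gave no call. Its summed level was 9.46, 8.19 and 25.6 RPKM on day 7 and 46.2, 47.6 and 42.0 on day 14. Sqle, squalene epoxidase, a rate-limiting enzyme of the pathway (chromosome 15, 59315077 to 59331192, plus strand), stood at 4.25, 3.56 and 6.41 RPKM on day 7 and 15.7, 11.3 and 14.7 on day 14, backed by at least 184 reads in each library. The days did not overlap, and the log2 fold change of 1.29 had a 95% interval of 0.078 to 2.504 (limma adjusted p = 0.228). Fdft1, squalene synthase, stood at 5.09, 4.51 and 16.9 RPKM on day 7 and 26.7, 33.2 and 24.3 on day 14. Its log2 fold change was 1.5 (SE 0.50, limma adjusted p = 0.13). This was 2.31 without day 7 replicate 3 and 0.69 without replicates 1 and 2, and its gene model overlaps that of Ctsb on the other strand. Lss, lanosterol synthase, had 10, 12 and 155 reads on day 7 and 428 to 472 on day 14, which is 0.116, 0.119 and 2.20 RPKM against 3.84, 3.16 and 3.0 RPKM. Its day 7 level rested on replicate 3, below all day 14 libraries. Its log2 fold change of 1.19 was 1.95 without that library and 0.43 without replicates 1 and 2. The gene model 4930483K19Rik overlaps Lss on the other strand.

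From lanosterol to cholesterol, none of 5 tested enzymes was called, with a median log2 fold change of 1.04. Cyp51, the lanosterol demethylase (chromosome 5, 4081145 to 4104746, minus strand), was the nearest to a call. It stood at 14.0, 13.7 and 26.9 RPKM on day 7 and 42.6, 42.1 and 40.6 on day 14, and the days did not overlap. Its mean went from 20.4 ± 9.26 RPKM (SD, n = 2) to 41.8 ± 1.07 (SD, n = 3), a log2 fold change of 1.07 (SE 0.31, limma adjusted p = 0.0803). Without day 7 replicates 1 and 2 it was 0.61. The gene model of Cyp51 overlaps that of Akap9 on the other strand, and the strand setting of the counting is not given in the sources used here.

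Msmo1, a methyl sterol oxidase, stood at 3.84, 4.12 and 5.34 RPKM on day 7 and 11.9, 9.11 and 11.01 on day 14, with a log2 fold change of 1.05. Sc5d, the sterol desaturase that acts near the end of the pathway, stood at 4.07, 4.33 and 3.15 RPKM on day 7 and 9.68, 12.8 and 10.7 on day 14, with a log2 fold change of 1.37 and a 95% interval of 0.19 to 2.55 (limma adjusted p = 0.191). Both genes had day 14 libraries above all day 7 libraries, and their day 7 libraries lay close together. Ebp, the sterol isomerase, and Nsdhl, the sterol dehydrogenase, overlapped between the days. Ebp was at 7.39, 6.41 and 25.4 RPKM on day 7 and 20.5 to 26.2 on day 14, and Nsdhl at 3.43 to 10.7 and 7.05 to 8.51 RPKM. For Ebp the log2 fold change of 0.76 was 1.63 without day 7 replicate 3 and -0.11 without replicates 1 and 2. Hsd17b7 and Dhcr7 were not tested. Hsd17b7 had 2, 0 and 178 reads in day 7 replicates 1, 2 and 3 and 94 to 115 on day 14. That is 0.0492, 0 and 5.35 RPKM on day 7 against 1.98, 1.47 and 1.62 on day 14, with overlap. Dhcr7, which makes cholesterol itself in the last reaction, was low on both days, at 1.42, 1.68 and 2.27 RPKM on day 7 and 1.09, 1.48 and 1.94 on day 14, with overlap.

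**Figure D3:**
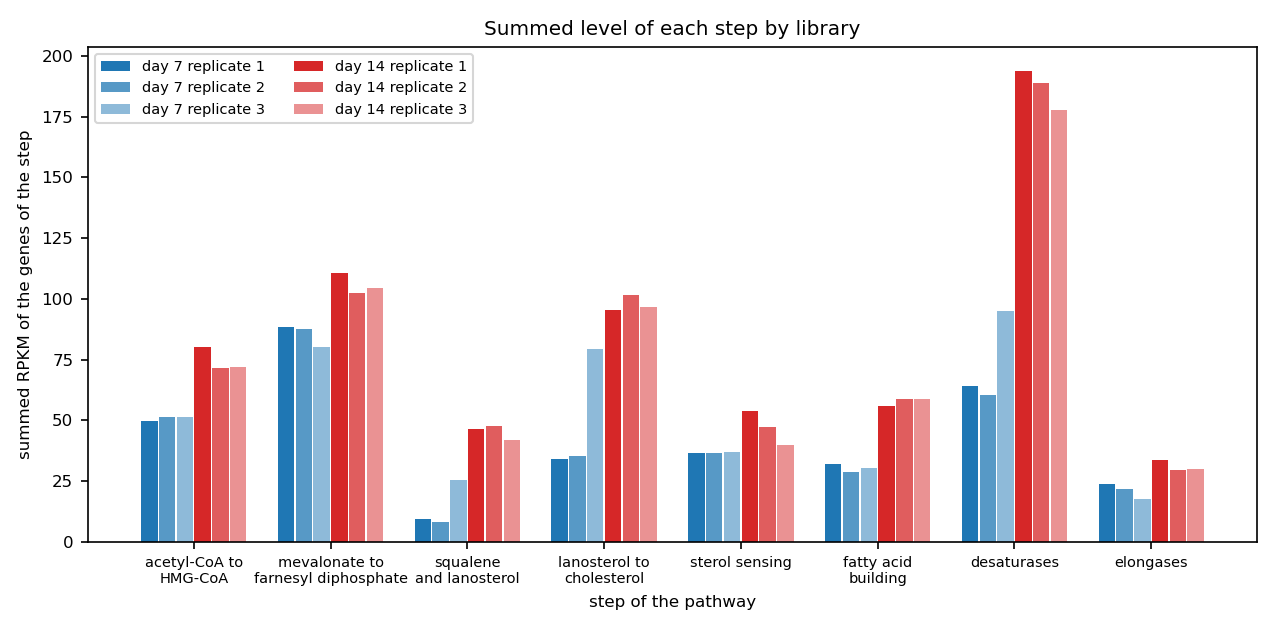
Summed RPKM of the genes of each of the 8 steps, 1 bar per library (blue, day 7; red, day 14; paler for replicates 2 and 3). The desaturases went from 60.4 to 95.03 RPKM on day 7 to 178 to 194 on day 14, the widest gap of the steps in RPKM.

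The sterol-sensing genes gave no call among 4 tested, with 3 log2 fold changes above 0 and 1 below. Srebf2, the gene of the factor that mainly drives cholesterol synthesis (chromosome 15, 82147266 to 82205376, plus strand), stood at 10.7, 9.64 and 15.4 RPKM on day 7 and 18.6, 17.6 and 14.3 on day 14. Srebf1, whose product mainly drives fatty acid synthesis (chromosome 11, 60199089 to 60222581, minus strand), stood at 7.88, 5.98 and 4.19 RPKM on day 7 and 3.55, 3.52 and 3.25 on day 14. Srebf1 was the 1 tested member whose day 14 libraries all lay below its day 7 libraries, while those of Srebf2 overlapped. The log2 fold change of Srebf1 was -0.53 with a 95% interval of -1.45 to 0.38 (limma adjusted p = 0.52), and it stayed between -0.84 and -0.23 in the 15 other settings, none of which called it. That of Srebf2 was 0.39 (limma adjusted p = 0.619), or 0.67 without day 7 replicate 3 and 0.11 without replicates 1 and 2. The ratio of Srebf2 to Srebf1 in RPKM was 1.36, 1.61 and 3.68 on day 7 and 5.24, 5 and 4.4 on day 14. The gene model of Rai1 on the other strand overlaps Srebf1.

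Insig1, the brake on SREBP processing and itself a sterol-responsive gene, stood at 18.1, 21.0 and 12.2 RPKM on day 7 and 28.4, 22.8 and 19.7 on day 14. The days overlapped, with the lowest day 14 library below day 7 replicate 2, and the log2 fold change of 0.57 gave no call (limma adjusted p = 0.505). Insig1 was at 0.25 without day 7 replicate 3 and 0.89 without replicates 1 and 2. Scap had 0, 2 and 242 reads in day 7 replicates 1, 2 and 3 and 255 to 303 on day 14, which is 0, 0.0289 and 4.98 RPKM against 3.22, 3.24 and 2.57 RPKM. All day 14 libraries lay between replicate 3 and the other day 7 libraries. Its log2 fold change of 0.70 (95% interval -0.68 to 2.08) turned to -0.58 without day 7 replicates 1 and 2. The gene model 5830462I19Rik overlaps Scap on the other strand.

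The enzymes that build fatty acids gave no call either, and the day 14 libraries lay above the day 7 libraries in 3 of 3, an order seen in 31.6% of all genes. Acly, ATP citrate lyase, which supplies cytosolic acetyl-CoA to both pathways (chromosome 11, 100476353 to 100528000, minus strand), stood at 24.2, 21.2 and 18.3 RPKM on day 7 and 36.4, 37.2 and 38.5 on day 14. The log2 fold change of Acly was 0.84 (SE 0.28, limma adjusted p = 0.124). Fasn, fatty acid synthase (chromosome 11, 120805846 to 120824547, minus strand), stood at 7.38, 6.94 and 9.16 RPKM on day 7 and 14.7, 17.0 and 15.3 on day 14, a log2 fold change of 0.87 (SE 0.38, limma adjusted p = 0.237). Both had day 7 libraries that lay close together. Acaca, acetyl-CoA carboxylase, which makes malonyl-CoA (chromosome 11, 84129672 to 84401651, plus strand), had 50, 88 and 338 reads on day 7 and 931 to 1119 on day 14, or 0.367, 0.553 and 3.03 RPKM against 4.79, 4.61 and 4.92 RPKM. The log2 fold change of Acaca, 1.25 (limma adjusted p = 0.205), was 2.33 and called when limma-voom was fitted to reads (adjusted p = 0.019), and 0.52 without day 7 replicates 1 and 2.

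Scd2 (chromosome 19, 44293676 to 44306864, plus strand) had the highest mean RPKM of the 32 genes on both days. Pmvk was above it in day 7 replicates 1 and 2, at 50.7 and 51.3 RPKM, and Hmgcs1 in replicate 2, at 47.6. Scd2 stood at 46.1, 41.3 and 72.0 RPKM in day 7 replicates 1, 2 and 3, backed by 2003 to 2560 reads. In day 14 replicates 1, 2 and 3 it stood at 133, 130.5 and 120 RPKM, backed by 8230 to 8937 reads. The days did not overlap, and day 7 replicate 3 lay above the other day 7 libraries. Its mean rose from 57.8 ± 19.98 RPKM (SD, n = 2) to 128 ± 6.80 (SD, n = 3), a log2 fold change of 1.17 (SE 0.24, limma adjusted p = 0.0212). A microRNA gene, Mir5114, overlaps Scd2 on the same strand. Leaving out day 7 replicate 3 ended this call while the log2 fold change went up, to 1.52 (limma adjusted p = 0.0523), and without day 7 replicates 1 and 2 it was 0.82 (limma adjusted p = 0.261). Over the 15 other settings the limma adjusted p ran from 0.000792 to 0.261, and 13 of 15 kept the call.

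Scd1, the neighbouring and closely related stearoyl-CoA desaturase that leads in liver and skin (chromosome 19, 44394451 to 44407709, minus strand), was lower than Scd2 in every library. It stood at 11.5, 12.8 and 5.52 RPKM on day 7 and 15.3, 12.7 and 13.1 on day 14, so the days overlapped. The log2 fold change was 0.66 with a 95% interval of -0.25 to 1.58 (limma adjusted p = 0.41). It was 0.16 without day 7 replicate 3 and 1.17 without replicates 1 and 2. The Scd2 to Scd1 ratio was 4, 3.23 and 13 on day 7 and 8.69, 10.3 and 9.13 on day 14. The Scd genes are close copies, so short reads could be split wrongly among them. Scd3, a further copy, had 58, 100 and 0 reads on day 7 and 2, 0 and 0 on day 14.

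Fads2 (chromosome 19, 10064164 to 10101503, minus strand) stood at 1.33, 0.997 and 10.98 RPKM in day 7 replicates 1, 2 and 3, backed by 16, 14 and 108 reads. On day 14 it stood at 35.6, 35.9 and 35.6 RPKM, backed by 611, 680 and 715 reads. Each day 7 library was below the filter level of 20 CPM, so Fads2 was tested only through its day 14 level. The day 14 libraries were nearly equal and all lay more than 3 times above the highest day 7 library. Its mean rose from 6.07 ± 6.94 RPKM (SD, n = 2) to 35.7 ± 0.175 (SD, n = 3), a log2 fold change of 2.85 (SE 0.57, 95% interval 1.59 to 4.11, limma adjusted p = 0.0164). It went from rank 17 of the 32 genes on day 7 to rank 5 on day 14 by mean RPKM. The day 7 rank rests on a mean of very unlike libraries. Without day 7 replicate 3 the log2 fold change was 4.08 (limma adjusted p = 0.0138). Without day 7 replicates 1 and 2 it was 1.62 and the call ended (limma adjusted p = 0.113). It also ended when limma-voom was fitted to reads, at 3.58 (adjusted p = 0.058). The other 13 settings kept the call.

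Fads1, the delta-5 desaturase that acts after Fads2 in the same route (chromosome 19, 10182888 to 10196870, plus strand), stood at 5.08, 5.28 and 6.57 RPKM on day 7 and 10.0, 9.79 and 8.58 on day 14. The days did not overlap, but the log2 fold change of 0.61 gave no call (limma adjusted p = 0.469). The ratio of Fads2 to Fads1 was 0.262, 0.189 and 1.67 on day 7 and 3.55, 3.67 and 4.15 on day 14, so Fads2 was below Fads1 in day 7 replicates 1 and 2 and above it in the other 4 libraries. Fads3, the third gene of this cluster on chromosome 19, had 2, 0 and 0 reads on day 7 and 22, 4 and 18 on day 14, or 0.0768, 0 and 0 RPKM against 0.591, 0.0974 and 0.413. Desaturases held 18.3% to 22.8% of the summed RPKM of the 32 genes on day 7 and 28.6% to 29.2% on day 14, while the 17 cholesterol enzymes held 53.7% to 56.8% and 49.7% to 50.7%.

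Of the elongases, which lengthen fatty acids, Elovl6, the enzyme for saturated and monounsaturated chains (chromosome 3, 129532355 to 129638495, plus strand), was the most uneven. It stood at 6.83, 6.51 and 0.167 RPKM on day 7, the lowest being 7 reads in replicate 3, and at 8.54, 8.86 and 8.41 RPKM on day 14. Its log2 fold change of 1.68 (limma adjusted p = 0.175) was 0.32 without day 7 replicate 3 and 3.04 without replicates 1 and 2. A predicted gene, Gm35986, overlaps Elovl6 on the other strand. Elovl5, the elongase for polyunsaturated chains, stood at 14.8, 13.1 and 15.5 RPKM on day 7 and 18.7, 16.9 and 18.2 on day 14, with a log2 fold change of 0.27 (limma adjusted p = 0.684). Elovl1, for very long chains, was not tested, at 2.12, 1.97 and 1.91 RPKM on day 7 and 6.22, 3.91 and 3.47 on day 14. Its days did not overlap, and it overlaps Cdc20 on the other strand.

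Day 7 replicate 3 stood apart from the other day 7 libraries in many of these genes. On the RPKM + 1 scale it differed by over 2-fold from the mean of replicates 1 and 2 in 11 of the 26 tested genes (42.3%), above it in 8 and below it in 3, against 20.5% of all genes tested. Replicates 1 and 2 differed from each other by at most 1.38-fold in the 26 genes, and day 14 libraries by at most 1.46-fold. The higher ones were Fdps, Fdft1, Lss, Nsdhl, Ebp, Scap, Acaca and Fads2, and the lower ones Pmvk, Scd1 and Elovl6.

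**Figure D4:**
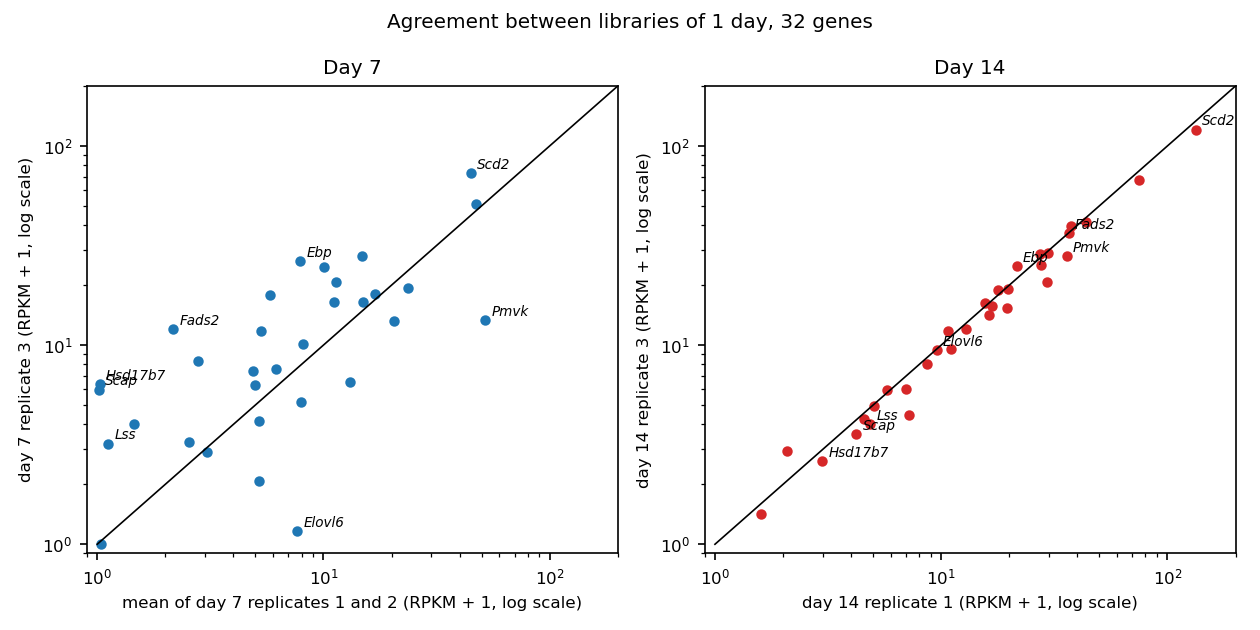
RPKM + 1 on log scales for the 32 genes. The left panel sets day 7 replicate 3 against the mean of day 7 replicates 1 and 2, and the right panel day 14 replicate 3 against day 14 replicate 1. The line marks equal values. Day 7 points scatter widely, with Elovl6 and Pmvk below the line and Fads2 and Scap above it, while day 14 points follow the line.

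Other genes of the same pathways were taken from a list of 38, of which 37 were in the files and 18 were tested. None was called higher or lower by limma, 5 were higher and 0 lower at an unadjusted p under 0.05, and the median log2 fold change was 0.071, beside 0.16 for all genes. At that unadjusted p, 11.3% of all genes were higher. Over the same 18, the day 14 libraries all lay above the day 7 libraries in 6 (33.3%), close to the 31.6% of all genes, and all below in 1. The 5 genes at an unadjusted p under 0.05 are named here, a choice made after their values were seen. Acsl3, which activates long fatty acids, stood at 31.7, 32.04 and 14.5 RPKM on day 7 and 49.6, 54.4 and 49.3 on day 14 (limma adjusted p = 0.063). Hsd17b12, which works with the elongases, stood at 37.2, 33.1 and 38.1 RPKM on day 7 and 61.2, 58.0 and 64.3 on day 14 (limma adjusted p = 0.125). Both genes were higher in each day 14 library than in any day 7 library. Insig2, the partner of Insig1, stood at 2.67, 3.90 and 5.21 RPKM on day 7 and 11.7, 11.3 and 11.3 on day 14 (limma adjusted p = 0.151). Soat1, which esterifies cholesterol for storage, stood at 6.08, 6.21 and 4.01 RPKM on day 7 and 11.99, 17.1 and 14.5 on day 14 (limma adjusted p = 0.206). The days did not overlap in these either. Stard4, a sterol transfer protein, was far less even, at 0.270, 0.0769 and 6.42 RPKM on day 7 and 10.3, 8.25 and 8.71 on day 14 (limma adjusted p = 0.177).

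Markers of further cell types were set beside these values, among them cells known for high lipid synthesis (adipocytes, sebocytes and hepatocytes). Of 8 adipocyte markers, 6 were in the files. Their sum was 0.175 to 1.23 RPKM on day 7 and 2.27 to 4.09 on day 14, with Cidec and Lep at 0 in all libraries and Adipoq and Retn at 0 on day 7. Of 6 keratinocyte and sebocyte markers, 2 were in the files, with a sum of 0 to 0.145 RPKM on day 7 and 0 on day 14. For hepatocytes, all 5 markers were present, with a sum of 118 to 172 RPKM on day 7 and 5.27 to 9.60 on day 14 (2 of 2 tested lower). Fibroblast markers (6) summed to 1.42 to 2.09 and 1.22 to 1.64 RPKM, B cell markers (3) to 2.26 to 3.73 and 0.292 to 1.29 RPKM, and neutrophil markers (4) to 12.7 to 17.4 and 49.4 to 63.7 RPKM. No fibroblast or B cell marker was tested, and the 1 neutrophil marker tested gave no call. The day 14 over day 7 ratio of these sums was 4.17 for adipocytes, at levels near 0, 3.54 for neutrophils and 0.0485 for hepatocytes. Their part in the members' levels was not tested.

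**Figure D5:**
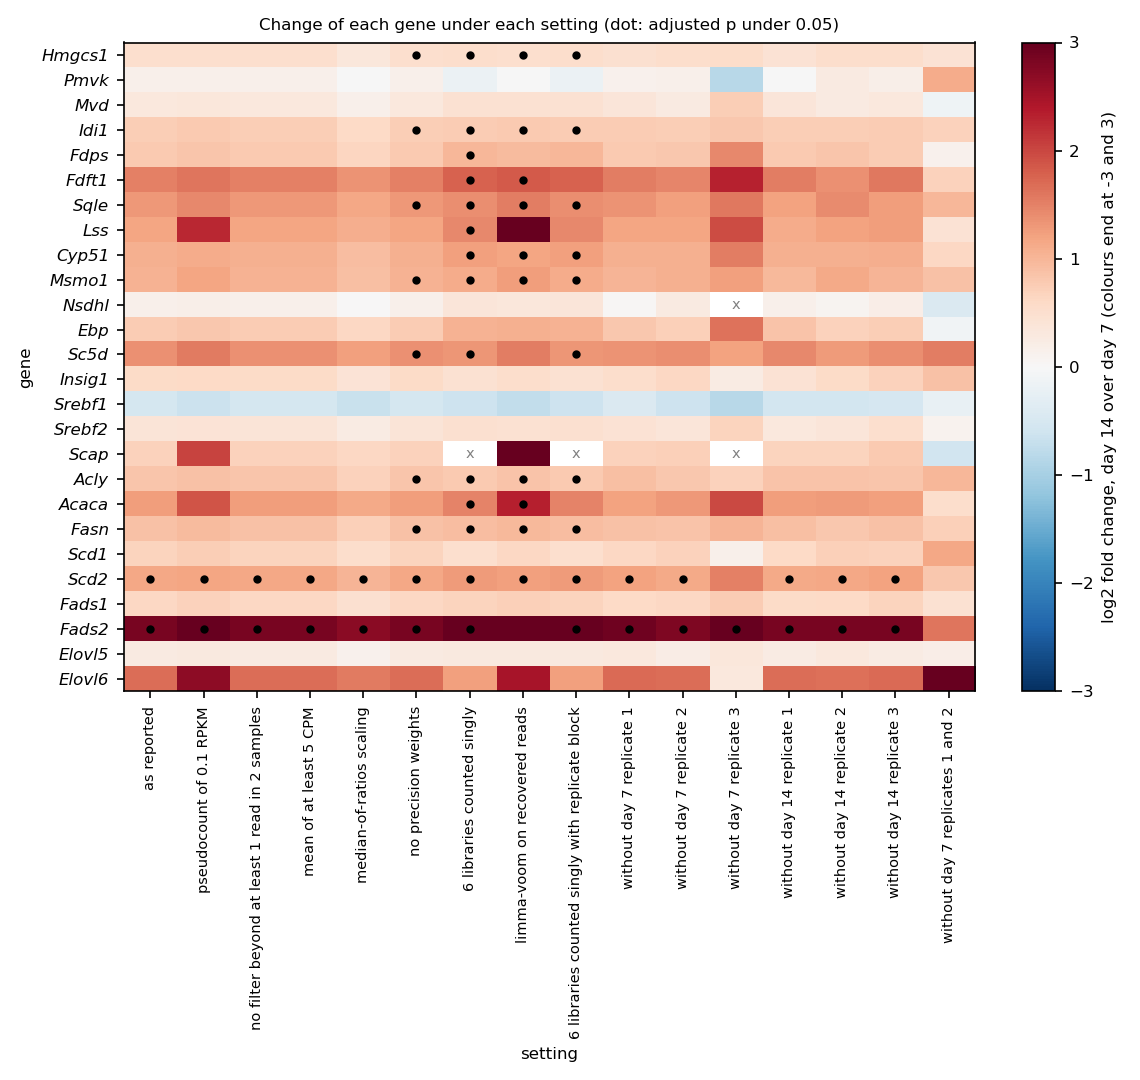
Log2 fold change, day 14 over day 7, of each tested gene (rows) as reported and under 15 other settings (columns), red above 0 and blue below, with a dot at an adjusted p under 0.05 and a cross where the gene was not tested. Fads2 and Scd2 are called as reported and in 13 of 15 other settings each. Other enzymes gain dots in the fits without weights, with 6 libraries counted singly and by limma-voom.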

How the data were processed

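Poly-A RNA libraries of CD8a-selected cells from B16 tumours (3 of day 7, 3 of day 14) were made with a stranded, paired-end kit with molecular identifiers, per the labels, and deposited by the authors as RPKM per gene. Per the submitters' processing notes, the authors used Trimmomatic 0.36 and featureCounts of Subread 1.5.1 with GRCm38. Aligner, strand setting and handling of identifiers: not given in the sources used here. Reads were recovered from RPKM and gene length. Low read numbers were mostly even, so 2 reads stand for 1 fragment. limma 3.58.1 (R 4.3.3) was fitted to log2(RPKM + 1) with day as the term, on genes averaging at least 20 CPM across 5 samples. Precision weights followed a loess curve, fitted per day, of variance against mean log2(RPKM + 1) (span 0.3, floor 0.005), then eBayes with a trend and Benjamini-Hochberg adjustment over all genes. Day 7 replicates 1 and 2 were averaged as 1 sample. This averaging and the scale of the weights were chosen after seeing the data. The weighted fit calls fewer genes than the fit without weights. Alternatives changed the pseudocount, filter, scaling, weights, tool, block and libraries. Of the 32 members, 24 have gene ends equal to GENCODE M21. The other pathway genes and 10 marker lists were chosen by symbol. Every member is named. Those called, those without overlap and the entry, rate-setting and regulatory genes get a value per library. The members and lists were chosen with earlier results of these data known. P-values measure the spread between these samples, which may be technical.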

Additional observations from a re-analysis of the deposited data

How the results depend on the processing

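With 2 samples on day 7, small changes cannot be told from the spread, and p-values rest on few degrees of freedom. In the fits that leave day 7 with 1 sample, that sample is assumed to vary as the day 7 trend over all libraries. The number of changed genes, 327 as reported, was 1912 with at least 1 read in 2 samples as the only filter, 531 at a mean of 5 CPM, 1011 without weights, 1563 with 6 libraries counted singly and 1268 by limma-voom. Leaving out 1 library each gave 124 to 332, the lowest without day 7 replicate 3, and it was 117 without day 7 replicates 1 and 2. The number of members called higher, 2 as reported, was 9 without weights, 14 with 6 libraries counted singly, 10 by limma-voom, 1 to 2 with 1 library left out (1 without day 7 replicate 3) and 0 without day 7 replicates 1 and 2. Scd2 was called in each of the fits that gave 9, 14 and 10, and Fads2 in all of them except limma-voom. Acly, Fasn, Hmgcs1, Idi1, Msmo1 and Sqle were also called in each of those fits. In those fits the share of all genes called higher was 8.98%, 13.7% and 10.7%, against 1.70% as reported. No member was called lower in any setting. Other pathway genes called higher, 0 as reported, were 2 with that filter (Hacd1 and Tm7sf2), 1 at a mean of 5 CPM, 3 without weights, 5 with 6 libraries counted singly and 3 by limma-voom. Those called lower, 0 as reported, were 1 with 6 libraries counted singly (Acsl5). With the replicate number as a replicate block and 6 libraries counted singly, 1151 genes were called (610 higher, 541 lower), with 10 members and 3 other pathway genes called higher, against 9.13% of all genes. No pairing by number was seen: same-numbered libraries had correlations of deviations of -0.019, -0.0128 and -0.0365 over 6680 genes. Because day 7 replicates 1 and 2 were nearly alike, these correlations cannot show that the libraries were unpaired. The log2 fold change of Pmvk turned to -0.0094 after median-of-ratios scaling, -0.18 with 6 libraries counted singly (with and without the block), -0.020 by limma-voom, -0.84 without day 7 replicate 3 and -0.0068 without day 14 replicate 1, with single libraries left out giving -0.84 to 0.27. Without day 7 replicates 1 and 2 it turned for Mvd (-0.13), Nsdhl (-0.43), Ebp (-0.11) and Scap (-0.58). Of 386 values of single members under other settings, 336 kept direction and call, 36 gained a call, 4 lost one and 10 reversed. The cause was not tested.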

Other observations

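Some genes beside the synthesis enzymes were too low for the test and are given as values, chosen after they were seen. Tm7sf2, a sterol reductase, was listed at 0 in the 3 day 7 libraries and stood at 1.26, 0.960 and 1.79 RPKM on day 14. Hacd1, which works in the elongation cycle, stood at 0.118, 0 and 1.45 RPKM in day 7 replicates 1, 2 and 3 and at 7.13, 8.35 and 8.01 RPKM on day 14. Mlycd, which breaks down malonyl-CoA, stood higher on day 7, at 5.67, 6.44 and 1.55 RPKM against 0.710, 0.107 and 1.06. Ggps1, which makes the geranylgeranyl diphosphate used to anchor small GTPases, had 381, 450 and 4 reads on day 7 and 175 to 218 on day 14. That is 20.2, 20.4 and 0.259 RPKM on day 7 against 8.09, 6.49 and 5.55 on day 14. Day 7 replicate 3 lay far below the other day 7 libraries in Ggps1.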
